A study of Mus musculus with 74 samples.

Results

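Transcripts of the cytosolic ribosomal proteins were followed through the first 120 h of mouse T helper (Th) cell differentiation. The genes were taken by symbol from the array annotation (Rpl or Rps followed by a digit, Rplp followed by a digit, or Rpsa), with the Rps6k kinases and pseudogenes left out, and the probe with the highest mean log2 signal over all arrays stood for each gene. Of 19031 annotated genes, 65 carried such a symbol, on 96 probes, and 59 of them were among the 13817 genes that passed a filter on low values, which asked for a mean above 6.77 on the log2 scale (the median of all values) in at least 1 condition. These 59 comprised 32 proteins of the large (60S) subunit, 21 of the small (40S) subunit, 5 paralogs of subunit proteins (Rpl7l1, Rpl22l1, Rpl36al, Rps4l and Rps27l), and Rps19bp1, a binding partner of Rps19 that is not itself a subunit. The probes of the other 6, Rpl17, Rps20, Rps23, Rpl3l, Rpl39l and Rps23rg1, had highest condition means of 6.47 to 6.71 and were not tested.

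The samples were Th1/2 hybrid (ThMix in the labels), Th1, Th2 and Th0 cultures at 3, 6, 12, 24, 35, 48, 73, 96 and 120 h after activation, and the naive cells at 0 h. All began as naive CD4+ CD62Lhi T cells from pooled spleen and lymph node of Balb/c mice aged 5 to 8 weeks, and all cultures were activated with antibodies to CD3 and CD28. Th1/2 cultures received IL-12 and IL-4, Th1 cultures IL-12 with anti-IL-4, Th2 cultures IL-4 with anti-IL-12 and anti-IFN-γ, and Th0 cultures only the blocking antibodies to IFN-γ, IL-4 and IL-12. Each of the 37 conditions was measured on 2 Illumina bead arrays, 1 in each of 2 independent experiments (74 arrays), and the 2 naive arrays are the common baseline of all cultures.

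T cell markers were bright throughout, and the markers of other blood cells were dimmer. The mean log2 signal of 9 T cell markers ranged from 11.02 to 12.44 over the cultures, against 12.28 and 12.60 in naive cells. The 8 of 9 B cell markers that passed the filter averaged 7.06 to 8.84 in the cultures and 8.62 and 8.67 in naive cells, and the 8 of 10 myeloid markers averaged 6.42 to 7.33 in the cultures and 7.49 and 7.83 in naive cells. The 3 of 6 CD8 T and NK cell markers that passed averaged 7.28 to 7.91 in the cultures and 7.36 and 7.59 in naive cells. The 5 erythroid markers averaged 6.53 to 8.29 in the cultures and 7.90 and 8.26 in naive cells. At 12 h, 7 of the 9 T cell markers, 6 of the 8 B cell markers and 5 of the 8 myeloid markers were lower than at 0 h and none was higher, and their part in the changes over time was not tested. A pair of arrays stood apart from the other cultures of their experiment and time: on the Th1/2 array of experiment 1 at 12 h, 16 of the 59 genes departed by more than 0.3 from the mean of the other cultures (27.4% of all genes did), and on the Th0 array of experiment 2 at 96 h 11 of the 59 did (37.6% of all genes), with Rpl22 lowest at -1.49. Culture differences whose call or size changed without this pair are also given without it. At 96 h, 11 members also departed on the Th1/2 array of experiment 2 (18% of all genes). On the Th0 array of experiment 1 at 96 h, 10 did (23.7%). Both arrays were kept in that check, and late means without all arrays of 96 h are given as well.

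A ribosome is built from a large and a small subunit, each a shell of ribosomal proteins around ribosomal RNA, and it is assembled in the nucleolus with the help of many factors that leave before translation starts. Most ribosomal protein mRNAs begin with a run of pyrimidines, the 5′ terminal oligopyrimidine (TOP) motif, through which the mTOR pathway and LARP1 control how well they are translated. Activated T cells grow and divide quickly, and translation rises strongly in the process, so that the supply of these proteins can change through translation of stored mRNA as well as through mRNA level. Only the mRNA level was measured here.

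The RefSeq transcript starts show the motif for some members and not for others. Windows of both kinds are printed, for Rpl35 and for members described below. A promoter entry was found for 54 of the 65 genes. A run of at least 5 pyrimidines from the annotated start was present in 13 of these genes (24.1%), against 5.28% of the 27025 genes with an entry. The following windows run 5′ to 3′ on the transcribed strand from 10 bases before the start to 20 bases from it (RefSeq, build GRCm38.p6), with the pyrimidine run in capitals. They were chosen after sequences and values were seen.
Rpl28 (chr7:4792955-4792984, plus strand): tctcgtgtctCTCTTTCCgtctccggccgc
Rpl35 (chr2:39005112-39005141, minus strand): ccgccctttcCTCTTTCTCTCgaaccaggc
Rps6 (chr4:86857348-86857377, minus strand): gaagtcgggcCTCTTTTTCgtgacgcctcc
Rps10 (chr17:27635225-27635254, minus strand): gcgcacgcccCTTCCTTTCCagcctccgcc
Rps15a (chr7:118116128-118116157, minus strand): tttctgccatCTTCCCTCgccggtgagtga
Rpl38 (chr11:114668570-114668599, plus strand): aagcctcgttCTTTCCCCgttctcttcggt
Rpl7a (chr2:26910797-26910826, plus strand): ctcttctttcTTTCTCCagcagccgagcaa
Rps27l (chr9:66946076-66946105, plus strand): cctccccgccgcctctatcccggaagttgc
Rplp0 (chr5:115559457-115559486, plus strand): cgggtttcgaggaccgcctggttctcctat
Rpl7l1 (chr17:46782637-46782666, minus strand): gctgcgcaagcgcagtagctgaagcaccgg
Rps19bp1 (chr15:80264287-80264316, minus strand): cggaagtagctcgccgcgtgtgggcggggc
Rpl22l1 (chr3:28805498-28805527, plus strand): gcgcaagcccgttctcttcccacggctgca
No run starts at the annotated position in the last 5 genes, which says only that these letters are not at that position. Rps27l has another annotated start, also without a run. Among the 50 tested members with an entry, the largest change over time had a median of 0.23 (0.12 to 1.10) on the log2 scale in the 12 with the run and of 0.27 (0.04 to 2.40) in the 38 without, so that the medians were close. By the F-test 6 of the 12 and 18 of the 38 changed. Of the 7 members with a largest change of 1 or more, 6 had no run, and so had 76% of the 50. The sequence CCGGAAG, on either strand, was in the 300-base promoter of 23 of the 54 genes (42.6%), against 9.93% of all genes.

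Most ribosomal protein genes were already near the top of the array scale in naive cells and stayed there. The brightest spot of each array lay between 15.93 and 16.09 on the log2 scale, and the probes of 33 members averaged over 15. Only 53 of all 13817 genes had probes as bright, so ribosomal proteins made up most of that range. The median largest change over time was 0.20 for these 33 members, 0.55 for the 14 members at 12 to 15 and 0.76 for the 12 members under 12. For all genes in the same ranges, members included, it was 0.24, 1.09 and 0.63. By the F-test, 22 of the 53 genes over 15 changed, and 6 of the 33 members among them did. Over the 59 members, signal and size of largest change had a Spearman correlation of -0.70, a description across genes that share all arrays and one upper limit of the signal. Levels are compared between probes here only as positions on the scale, not as amounts of mRNA.

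**Figure D1:**
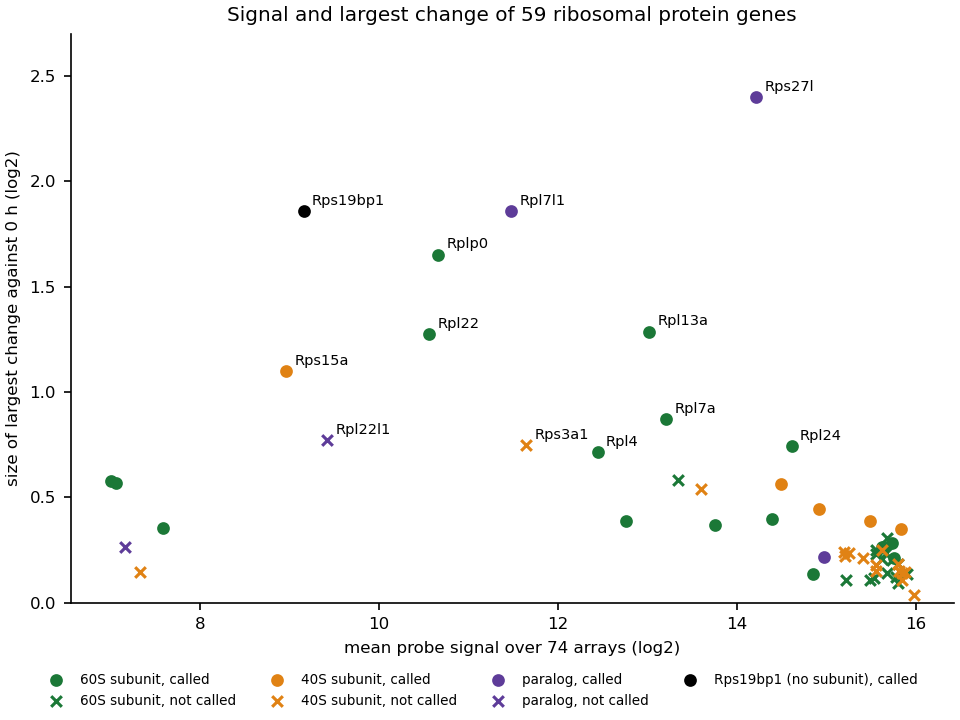
Mean log2 probe signal over 74 arrays (x axis) and size of the largest change against 0 h, averaged over the 4 cultures (y axis, log2), for 59 genes. Circles passed limma's F-test over the 9 times and crosses did not. The dense group over 15 has a median change of 0.20, and the largest change, 2.40 for Rps27l, lies at a lower signal.

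Rps12, a 40S protein, had the brightest probe and barely moved. Its 74 values ran from 15.87 to 16.07, and its largest change against 0 h was 0.04 ± 0.07 (SE). The P-stalk proteins Rplp1 and Rplp2 form, with Rplp0, the stalk that recruits elongation factors. Their largest changes were -0.20 ± 0.11 and -0.24 ± 0.16, and neither passed the test. A dim second probe of Rplp2 (mean 6.67) rose by 0.50 ± 0.11 at 6 h (adjusted p = 0.0044, limma). Rps6, the 40S protein phosphorylated by S6 kinase, had a largest change of -0.21 ± 0.13 at 35 h. Rps3, Rps19 and Rpl38 had largest changes of -0.24, -0.18 and -0.21. Of these, Rpl38 passed the F-test over the 9 times (adjusted p = 0.035, limma) but no single time, and Rps3 and Rps19 passed neither. Rpsa, a 40S protein also called the laminin receptor, was read by a dim probe whose 74 values lay between 7.05 and 7.67, and its largest change was 0.15 ± 0.10.

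Time was tested with the 4 cultures averaged within an experiment, which leaves 1 value per experiment and time. By limma's F-test over the 9 times, 26 of the 59 genes changed against 0 h, which is 44.1%, while 66.6% of all genes tested did. The F-test passed for 17 of 32 proteins of the 60S subunit and for 5 of 21 of the 40S subunit. At single times, 13 genes were higher than at 0 h at 1 or more times (34.5% of all genes were) and 9 were lower (30.7% of all genes), with Rpl13a and Rps15a in both counts. The counts of higher members were 4, 7, 7, 10, 10, 9, 6, 6 and 6 from 3 to 120 h, where 9%, 15.1%, 16.7%, 19.6%, 18.9%, 17.7%, 15.5%, 13.8% and 13.4% of all genes were higher. The counts of lower members were 1, 0, 1, 4, 5, 1, 1, 0 and 0, where 13.5%, 16.8%, 16.3%, 18%, 18.3%, 17%, 14.8%, 14.2% and 14.2% of all genes were lower. Members, like all genes, were thus most often called at 24 and 35 h. The median change of the 59 genes stayed between -0.11 and -0.00 over the 9 times, and that of all genes between -0.00 and 0.04. A largest change of 1 or more, that is 2-fold, was reached by 7 members, Rps27l, Rpl7l1, Rps19bp1, Rplp0, Rpl13a, Rpl22 and Rps15a, and by 33.8% of all genes. In bulk samples, a lower share of cells with a transcript and less transcript per cell cannot be told apart, and normalization to a common distribution removes any change in total RNA per cell.

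**Figure D2:**
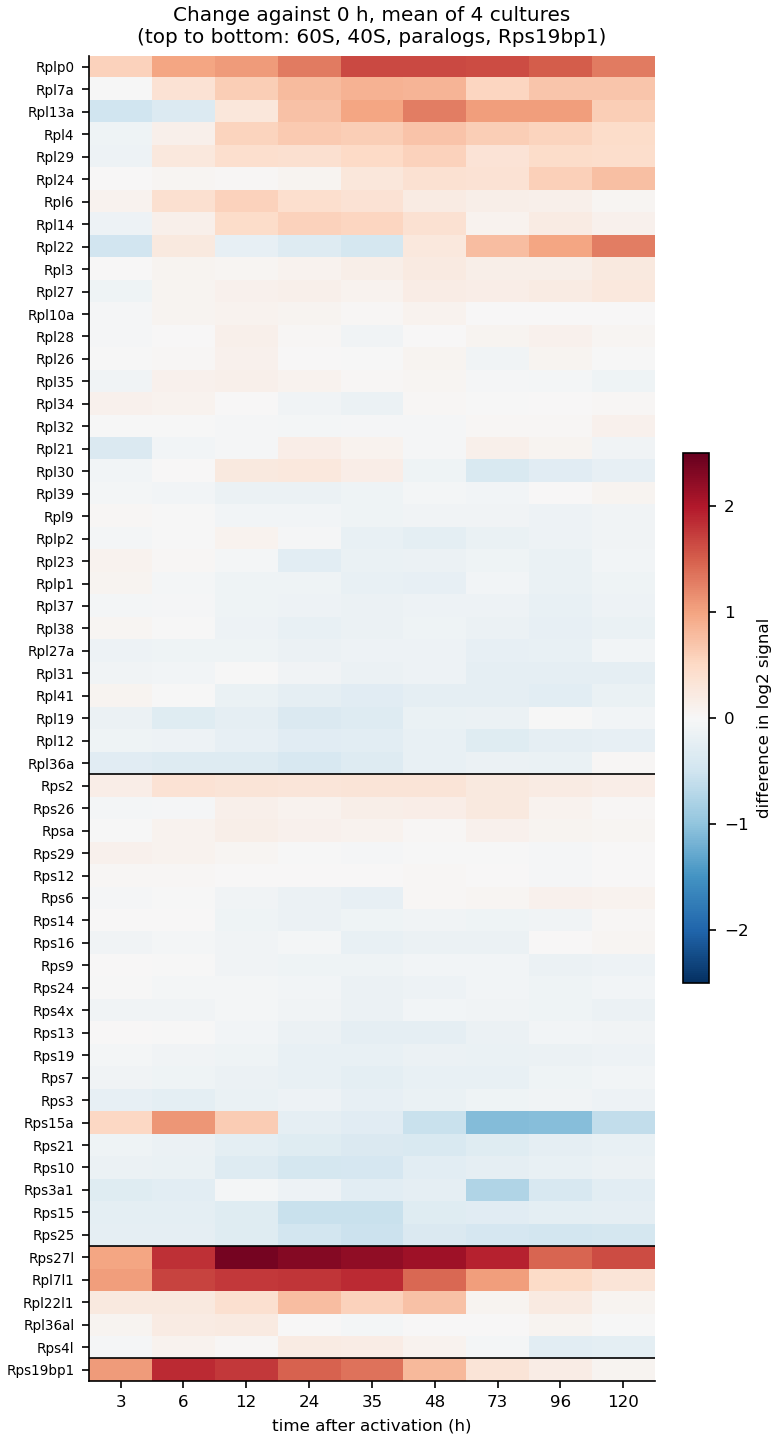
Change in log2 signal against 0 h (colour), averaged over the 4 cultures and both experiments, for 59 genes (rows) at 9 times (columns). Lines separate 60S proteins, 40S proteins, paralogs and Rps19bp1. Most rows are pale, with member medians of -0.11 to -0.00, and the darkest row is Rps27l, with 2.40 at 12 h.

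Rps27l, a paralog of the 40S protein Rps27 and a known p53 target, rose most. At 12 h the 8 culture arrays lay between 14.61 and 14.98 with a median of 14.79, against 12.16 and 12.62 on the naive arrays. The groups did not overlap at any of the 9 times. The increase was 0.98 ± 0.32 at 3 h, 2.40 ± 0.32 at 12 h, 5.28-fold (adjusted p = 8.8e-05, limma), and 1.62 ± 0.32 at 120 h, and it passed at all 9 times. Rps27 itself was not analysed here.

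Rplp0, the anchor of the P stalk, rose more slowly and stayed high. At 48 h the culture arrays lay between 10.77 and 11.32 (median 11.08), against 9.23 and 9.57 in naive cells. The increase was 0.58 at 3 h, 1.06 at 12 h, 1.65 ± 0.17 at 48 h (3.14-fold, adjusted p = 7.4e-06, limma) and 1.29 at 120 h, with no overlap at any time. Its stalk partners Rplp1 and Rplp2 stayed at the top of the scale, as described above.

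Rpl13a, a 60S protein that also acts in translational silencing in human monocytes, fell first and then rose. At 3 h the culture arrays lay between 11.81 and 12.18 (median 11.98), against 12.34 and 12.59 in naive cells. That is a fall of 0.49 ± 0.16 (adjusted p = 0.04, limma). At 48 h they lay between 13.61 and 13.91 (median 13.74), an increase of 1.29 ± 0.16 (2.44-fold, adjusted p = 3.9e-05, limma). The turn fell between 6 and 24 h, with steps of 0.62 from 6 to 12 h and 0.45 from 12 to 24 h that both passed.

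Other 60S proteins rose less. Rpl4 passed at 7 of 9 times, with 12.53 to 12.83 in the cultures at 48 h (median 12.73), against 11.98 and 12.00 in naive cells, a difference of 0.72 ± 0.15 (adjusted p = 0.0019, limma). Rpl7a, whose transcript start carries a run of 7 pyrimidines, reached 13.22 to 13.79 at 35 h (median 13.48), against 12.57 and 12.69 in naive cells. That difference, 0.87 ± 0.28, had an adjusted p of 0.026 (limma). Rpl6 and Rpl14, read by dim probes, peaked at 0.58 ± 0.13 at 12 h and 0.57 ± 0.17 at 24 h. Rps2, a bright 40S protein, was higher at 5 times, by 0.35 ± 0.09 at 6 h.

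Rpl7l1 and Rps19bp1 rose within 3 h and came back. Rpl7l1, a nucleolar relative of Rpl7 whose yeast counterpart acts in assembly of the large subunit, lay between 10.86 and 11.59 at 3 h and between 11.93 and 12.24 at 35 h, against 9.81 and 10.69 in naive cells. The increase was 1.05 at 3 h and 1.86 ± 0.25 at 35 h (3.63-fold, adjusted p = 8.1e-05, limma), and at 120 h it was 0.32, with the arrays overlapping the naive range. Rps19bp1, also known as a regulator of SIRT1, peaked earlier, at 9.77 to 10.25 at 6 h (median 10.07), against 8.03 and 8.36 in naive cells. Its increase at 6 h was 1.86 ± 0.22 (3.62-fold, adjusted p = 3.6e-05, limma), and the arrays overlapped the naive range again from 73 h. From 24 and 35 h to 73, 96 and 120 h, the mean of Rpl7l1 fell by 1.21 ± 0.10 and that of Rps19bp1 fell by 1.23 ± 0.09.

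Rpl22 and Rpl24 were called only from 73 h and from 48 h on. Rpl22 is a 60S protein with a known role in αβ T cell development in mice. It lay between 9.61 and 9.98 at 35 h, below 10.23 and 10.45 in naive cells, and between 11.26 and 11.99 at 120 h (median 11.62). The change was -0.44 at 35 h, which did not pass, and 1.27 ± 0.22 at 120 h (2.42-fold, adjusted p = 0.00068, limma). It passed at 73, 96 and 120 h, and before that only steps between neighbouring times passed. At 96 h the lowest of the 8 arrays, 10.03, was the Th0 array of experiment 2 described above, and the other 7 were above the naive range. Rpl24 passed at 48, 96 and 120 h and rose by 0.74 ± 0.13 at 120 h (14.90 to 15.28 in the cultures, against 14.27 and 14.41 in naive cells).

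Rps15a, a 40S protein, moved both ways. It rose by 1.10 ± 0.37 at 6 h, where the cultures lay between 10.12 and 10.37, against 8.96 and 9.30 in naive cells (adjusted p = 0.039, limma). At 73 h it lay between 7.88 and 8.32, a fall of 1.08 ± 0.37 (adjusted p = 0.045, limma). From 12 to 24 h it fell by 0.86 ± 0.24. Apart from Rps15a, the decreases that passed were small. Rps15 and Rps25 fell by 0.56 ± 0.15 at 24 h and 0.54 ± 0.18 at 35 h, Rps10 by 0.45 ± 0.11 at 24 h, Rps21 by 0.39 ± 0.12 at 48 h, and Rps7 by 0.25 ± 0.09 at 35 h, all 40S proteins, while Rpl36a fell by 0.40 ± 0.12 and Rpl19 by 0.37 ± 0.12 at 24 h. For Rps10, whose start carries 10 pyrimidines, the cultures at 24 h lay between 14.61 and 14.84, against 15.11 and 15.21 in naive cells, with no overlap. Rpl13a and Rps15a complete the 9 genes that fell at 1 or more times. Of these genes, Rps25 and Rps7 did not pass limma's F-test over the 9 times (adjusted p = 0.13 and 0.15).

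**Figure D3:**
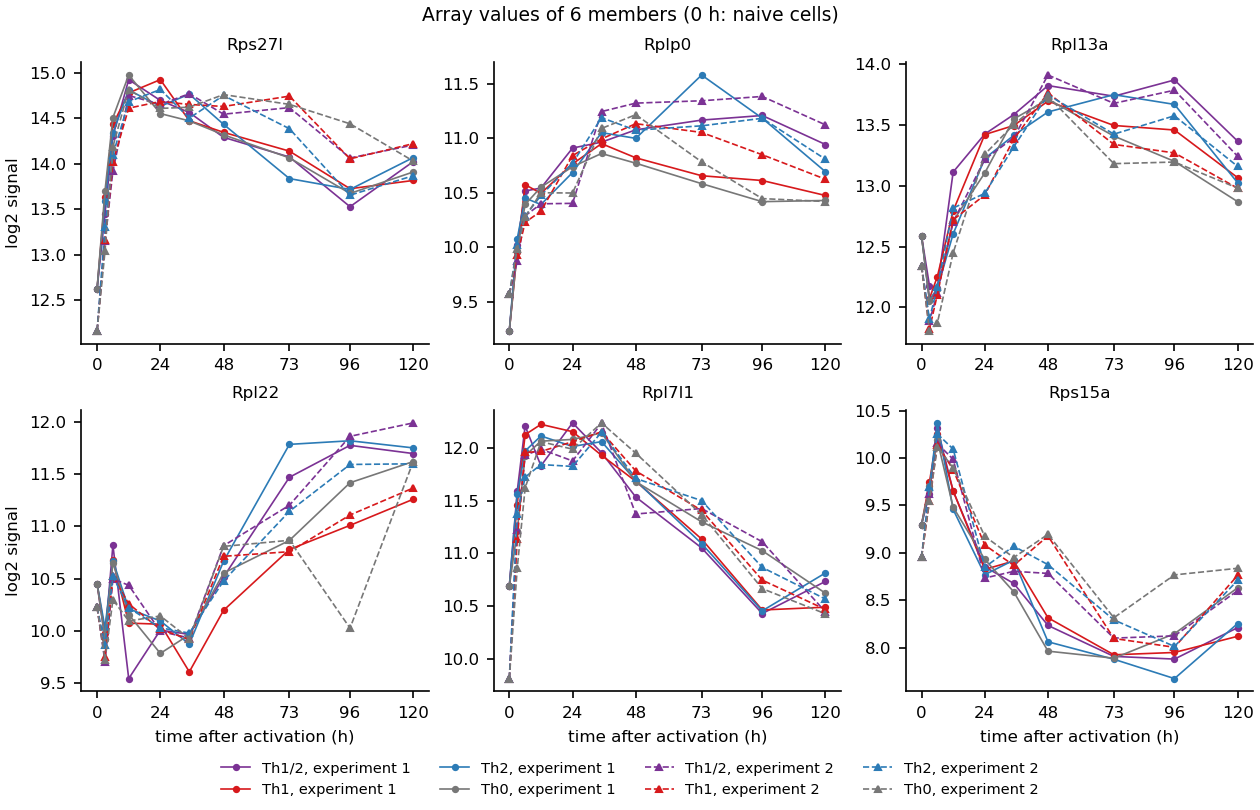
Log2 signal on each array (y axis) by time after activation (x axis) for 6 genes. Colours give the culture, solid lines with circles experiment 1, and dashed lines with triangles experiment 2, and the points at 0 h are the naive arrays. Rps27l and Rpl7l1 rise within hours, Rplp0 and Rpl13a over 48 h, Rpl22 after 35 h, and Rps15a rises to 6 h and is lowest at 73 and 96 h.

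The median of the 60S proteins was above that of the 40S proteins at all 9 times. The median change of the 32 proteins of the 60S subunit lay between -0.06 and 0.02, and that of the 21 of the 40S subunit between -0.18 and -0.04. At 35 h, 6 of the 32 proteins of the 60S subunit were higher and 0 lower. Of the 21 of the 40S subunit, 1 was higher and 5 lower. Of all genes, 18.9% were higher and 18.3% lower at that time. At 24 h, 2 proteins of the 60S and 2 of the 40S subunit were lower. The difference between the subunits was not tested.

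The change from the middle to the late phase was mixed. Comparing the mean of 73, 96 and 120 h with that of 24 and 35 h, 8 of the 59 genes were higher (25% of all genes) and 10 were lower (27.4% of all genes). Rpl22 rose by 1.39 ± 0.09, and Rpl24, Rps15, Rpl19 and Rps6 by 0.39, 0.31, 0.27 and 0.26. Beside Rpl7l1, Rps19bp1, Rps15a and Rps27l, the genes that fell included Rpl22l1 (by 0.55 ± 0.19, with -0.07 in experiment 1 and -1.03 in experiment 2), Rpl30 (by 0.51 ± 0.09) and Rpl14 (by 0.42 ± 0.07). Between neighbouring times, 7 members rose from 3 to 6 h, led by Rps27l (0.85), Rps19bp1 (0.79), Rpl22 (0.72) and Rpl7l1 (0.63). Of all genes, 15% rose and 12.2% fell in this step, in which 0 members fell. From 6 to 12 h, Rpl13a and Rpl4 rose (8.87% of all genes) and Rpl22 fell (5.54%). From 12 to 24 h, Rpl13a rose (10.1%), and Rps15a, Rpl23 and Rpl36al fell (7.85%). From 35 to 48 h and from 48 to 73 h, Rpl22 rose by 0.70 and 0.52 (7.9% and 8.55% of all genes) and Rps19bp1 fell by 0.54 and 0.50 (5.9% and 7.76%). In limma's test no member was called from 24 to 35 h (0.246% of all genes higher, 0.347% lower), from 73 to 96 h (0.905%, 0.622%) or from 96 to 120 h (0.246%, 0.0941%), with 3, 4 and 2 members at an unadjusted p under 0.05.

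Of the 5 paralogs, 3 had a partner that was tested. Over the 37 conditions, Rpl22l1 correlated with Rpl22 with r = -0.36, Rpl36al with Rpl36a with r = -0.18, and Rps4l with Rps4x with r = 0.13, as a description over conditions that share arrays. Rps4x is read near the top of the scale (mean 15.85), and whether this limits the shared movement that could show was not tested. Rpl22l1, which Rpl22 is known to repress in mouse cells, lay between 9.32 and 10.76 at 24 h (median 9.69), against 8.77 and 9.36 in naive cells, and its difference of 0.77 ± 0.47 did not pass. Rpl36al had a largest change of 0.22 ± 0.10 at 12 h and passed the F-test but no single time against 0 h, with a fall of 0.21 from 12 to 24 h. Rps4l passed neither against 0 h, and it fell by 0.37 ± 0.11 from 24 and 35 h to 73, 96 and 120 h. Across all 1711 pairs of the 59 genes, the median correlation was 0.06 (-0.84 to 0.91). The genes least like the mean of the others were Rplp1 (r = -0.40), Rps10 (-0.30), Rpl9 (-0.29), Rps19 (-0.29) and Rps13 (-0.27), and each of these changed by less than 0.5 at any time. Genes were centred but not scaled for that mean, so members with large changes weigh most in it.

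Several members were read by more than 1 probe, and dimmer probes often told a different course. In 19 genes, 26 further probes passed the filter. By the F-test, 16 of these 26 changed, against 7 of the 19 brightest probes of the same genes (66.2% of all expressed probes). A largest change of 1 or more was seen for 7 of the 26, for 1 of the 19, and for 30.2% of all expressed probes. These probes are described here after their values were seen.

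The second probe of Rpl38, a 60S protein with a known role in translation of Hox mRNAs in mice, lay between 12.32 and 12.95 at 35 h, against 9.72 and 9.83 in naive cells. That is an increase of 2.78 ± 0.30 (adjusted p = 1.3e-05, limma). The brightest probe of Rpl38 lay between 15.45 and 16.04 on all arrays, near the array maximum. Whether an upper limit of the signal hid an increase there was not tested. Rps24 has 2 dimmer probes annotated to another transcript accession than the brightest. One rose by 2.49 ± 0.19 at 48 h (11.87 to 12.28 in the cultures, against 9.55 and 9.67 in naive cells), and the other by 1.84 ± 0.29 at 6 h, while the brightest had a largest change of -0.15 ± 0.08. The second probe of Rps19 rose by 1.72 ± 0.31 at 35 h, that of Rpl29 by 1.61 ± 0.25 at 6 h, and that of Rpl28 by 1.33 ± 0.11 at 48 h. The second probe of Rps13 fell by 2.08 ± 0.16 at 73 h (8.27 to 8.62 in the cultures, against 10.30 and 10.77 in naive cells), with its brightest probe at -0.22 ± 0.14. Apart from those of Rps24, these probes share the accession of the brightest one. Ribosomal protein genes have many processed pseudogenes and close copies, so which transcripts a probe reads is uncertain, and what the probes target was not tested.

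**Figure D4:**
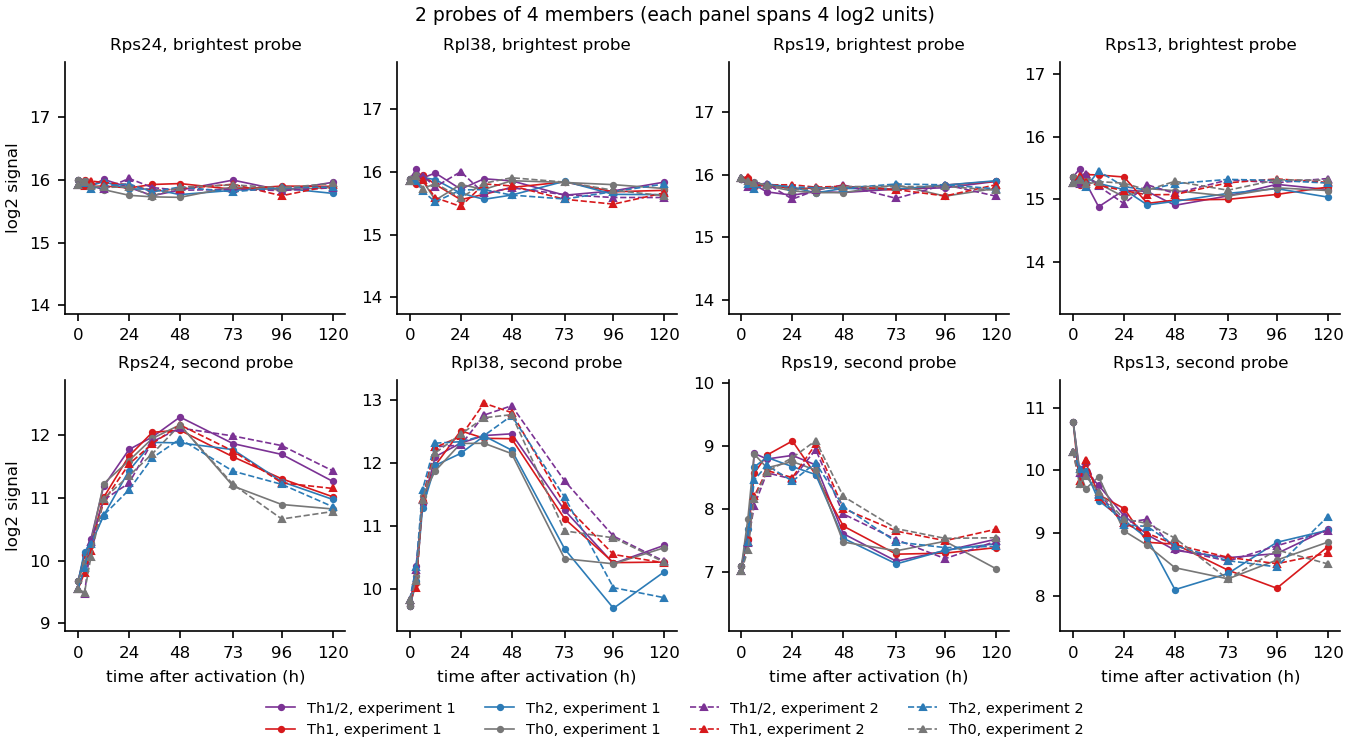
Log2 signal on each array (y axis) by time after activation (x axis) for the brightest probe (top) and the second probe (bottom) of Rps24, Rpl38, Rps19 and Rps13. Each panel spans 4 log2 units, colours give the culture, and line styles the experiment. The brightest probes of Rps24, Rpl38 and Rps19 lie near the array maximum of 15.93 to 16.09, and whether this limit hides an increase was not tested. The second probes of Rps24, Rpl38 and Rps19 rise by up to 2.49, 2.78 and 1.72, and that of Rps13 falls by up to 2.08.

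Counted by culture and time against 0 h, 471 of 2124 comparisons of members passed (22.2%), against 38.9% for all genes. A gene was taken as kinetic in a culture where the F-test over its times passed and the level was 2-fold or more above, or below, that of naive cells at 2 times in a row. By this rule 7 members were kinetic in at least 1 culture, while 33.4% of all genes were. There were 7, 5, 7 and 5 such members in Th1/2, Th1, Th2 and Th0 cultures, where 28.9%, 27.1%, 28.3% and 26.4% of all genes were kinetic. Rps27l, Rplp0, Rpl7l1 and Rps19bp1 were kinetic and higher in all 4 cultures. Rpl13a was so in Th1/2, Th2 and Th0 cultures and Rpl22 in Th1/2 and Th2 cultures, and Rps15a was kinetic and lower in Th1/2, Th1 and Th2 cultures. From 24 and 35 h to 73, 96 and 120 h, 12 members were higher and 7 lower in Th1/2 cultures (22% and 24.3% of all genes), 5 and 10 in Th1 (21.3%, 24.6%), 12 and 9 in Th2 (22.8%, 25.6%), and 3 and 10 in Th0 cultures (21.4%, 22.1%). Rpl22 rose in each, by 1.69, 1.15, 1.62 and 1.11. These lists say nothing of a difference between cultures, which was tested directly.

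Cultures differed in few members. By the F-test over the 27 differences among the 4 cultures, 1 of 59 genes passed, Rplp0 (adjusted p = 0.0032, limma), while 14.8% of all genes did. With the experiment as a block within each time the count was 9, and without the pair of arrays that stood apart it was 3. The shares of all genes under these settings are not given, so these counts cannot be set against the 14.8%. In the means over 3 to 12 h and over 24 and 35 h, no member was called by limma between any of the 6 pairs of cultures, with at most 4 members a pair at an unadjusted p under 0.05, while 3.58% and 6.59% of all genes were called in at least 1 pair. In the late mean over 48, 73, 96 and 120 h, 13 members were higher in Th1/2 than in Th0 cultures, where 10.1% of all genes were higher, and 0 were lower (13.8% of all genes). Of these 13, 11 are 60S proteins, beside Rpl22l1 and the 40S protein Rps15, and all were higher in both experiments. Beside this, 4 of 8 B cell markers were higher in Th1/2 than in Th0 cultures (median difference 0.37) and 4 of 9 T cell markers lower (median -0.16), and their part in the result was not tested.

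Rplp0 showed the largest of these differences. Its 8 late Th1/2 arrays lay between 10.94 and 11.38 (median 11.19), and the Th1, Th2 and Th0 arrays had medians of 10.74, 11.10 and 10.52, with 10.42 to 11.22 in Th0 cultures. The ranges overlapped, since Th0 cells of experiment 2 at 48 h reached 11.22. Th1/2 exceeded Th0 by 0.56 ± 0.08 (adjusted p = 2.3e-07, limma), by 0.55 in experiment 1 and 0.58 in experiment 2. From 24 and 35 h to 73, 96 and 120 h, Rplp0 rose by 0.31 ± 0.10 in Th1/2 cells and fell by 0.28 ± 0.10 in Th0 cells.

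Rpl22 had late medians of 11.58 in Th1/2, 10.89 in Th1, 11.60 in Th2 and 10.87 in Th0 cultures, with ranges that overlapped. Th1/2 exceeded Th1 by 0.52 ± 0.12 (adjusted p = 0.0015) and Th0 by 0.44 ± 0.12 (adjusted p = 0.0048, limma). The difference from Th0 was 0.25 in experiment 1 and 0.64 in experiment 2. It was 0.27 ± 0.09 (adjusted p = 0.019, limma) without the arrays that stood apart and 0.23 ± 0.14 (adjusted p = 0.34) without the arrays of 96 h.

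Rpl7a, Rpl13a, Rpl29 and Rpl4 exceeded Th0 in Th1/2 cultures by 0.47 ± 0.11, 0.39 ± 0.07, 0.37 ± 0.10 and 0.31 ± 0.06, and the paralog Rpl22l1 by 0.52 ± 0.19. For Rpl13a the 8 late arrays lay between 13.24 and 13.91 in Th1/2 and between 12.87 and 13.74 in Th0 cultures. The remaining 6, Rpl30, Rps15, Rpl24, Rpl19, Rpl27 and Rpl26, differed by 0.14 to 0.25. With the experiment as a block within each time, 18 members were called, 17 of them higher (30.5%, against 34.1% of all genes in either direction). All 13 were among them. Without the pair of arrays 11 members were called (18.6%, against 21.7% of all genes in either direction), 10 of them among the 13. Rpl22l1 (adjusted p = 0.067), Rpl30 (0.073) and Rpl26 (0.14) then no longer passed limma's test, and the difference of Rpl24 was 0.13 against 0.23 with all arrays. Without all Th0 arrays of experiment 2, 7 members were called (11.9%, against 17.8% of all genes in either direction). Without the arrays of 96 h 6 members were called, all among the 13 (10.2%, against 16.1% of all genes in either direction). All members called in the checks that left out arrays were higher in Th1/2. The share of all genes that was higher is not given for them, so these shares cannot be set against the 10.1% above.

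**Figure D5:**
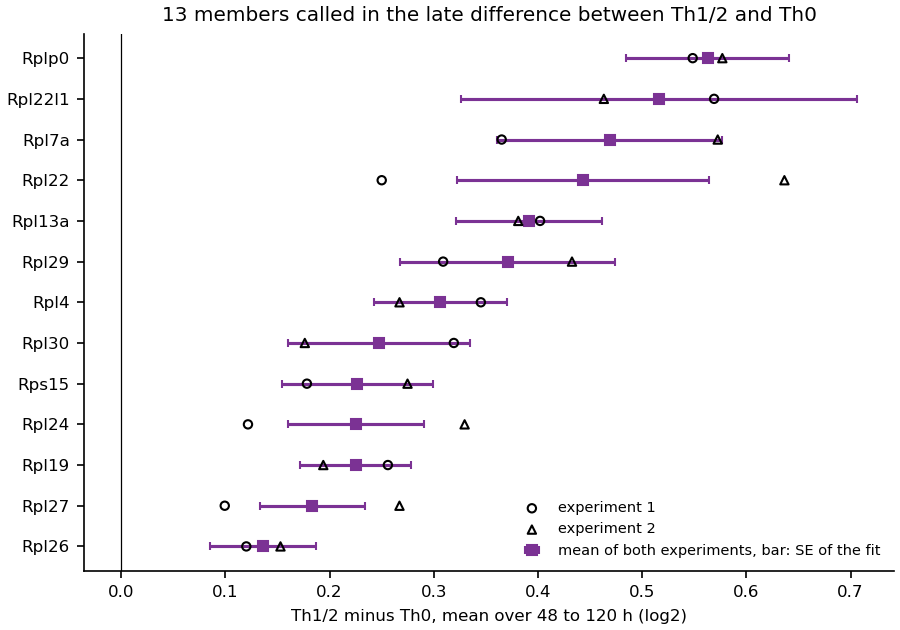
Difference in log2 signal between Th1/2 and Th0 cultures, averaged over 48, 73, 96 and 120 h (x axis), for the 13 members called. Squares are the mean of both experiments with the SE of the fit, circles experiment 1, and triangles experiment 2. All points lie right of 0, from 0.14 for Rpl26 to 0.56 for Rplp0 in the mean.

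Against Th1, 7 members were higher in Th1/2 cultures in the late mean (7.32% of all genes were) and 0 were lower (8.41%): Rpl22, Rplp0 (0.42 ± 0.08), Rpl7a (0.34 ± 0.11), Rpl4 (0.30 ± 0.06), Rps25, Rpl13a and Rpl19. With the experiment as a block within each time, 12 were called (20.3%, against 25% of all genes in either direction). Without the arrays of 96 h 4 were called (6.78%, against 11.1% in either direction). Without the Th1 arrays of experiment 1 3 were (5.08%, against 10.2% in either direction). All members called in these checks were higher in Th1/2. Th2 cultures exceeded Th0 in 6 members (11.1% of all genes were higher, 14% lower), led by Rplp0 with 0.45 ± 0.08, and in 10 members called in either direction under the block, 9 of them higher (16.9%, against 34.6% of all genes). The count was 1 without the arrays of 96 h and 1 without the Th2 arrays of experiment 1 (1.69%, against 15.7% and 16.5% of all genes in either direction). The member called was higher in each case. Th1 was lower than Th2 in Rpl22 (-0.45 ± 0.12) and Rplp0 (-0.30 ± 0.08), where 9.97% of all genes were lower and 10.5% higher. Under the block 5 were lower (8.47%, against 30.1% of all genes in either direction), and without the arrays of 96 h, or the experiment 1 arrays of Th1 or of Th2, 0 were called. By limma no member was called between Th1 and Th0 (2.94% of all genes higher, 2.86% lower) or between Th1/2 and Th2 (1.79% and 2.33%), with 1 and 3 members at an unadjusted p under 0.05. Without the pair of arrays Rpl22 and Rpl29 each differed between Th2 and Th0 by 0.21 and no longer passed (adjusted p = 0.080 and 0.16, limma). The comparisons with Th0 share its arrays, so their lists are not independent. Since the 4 late times come from the same 2 experiments, the late errors measure the spread between arrays and not between further experiments.

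Other lists of the translation machinery are given beside the ribosomal proteins, whose probes are mostly near the top of the scale. These lists were compiled with earlier results known and are given by counts. At 12 h, 41 of 44 ribosome assembly factors were higher than at 0 h and 0 lower (16.7% and 16.3% of all genes), with a median change of 1.55, against -0.02 for the 59 ribosomal proteins and 0.02 for all genes. Nucleolin (Ncl), a major nucleolar protein, rose by 2.77 ± 0.30, and Nhp2, which acts in modification of ribosomal RNA, rose by 2.73 ± 0.28. Of 73 mitochondrial ribosomal proteins, 58 were higher at 12 h and 0 lower, with a median of 0.99, and 17 of 31 initiation factors were higher, with a median of 0.81, led by Eif5a with 2.26 ± 0.21. The import and chaperone list had 5 of 11 higher (median 0.99), the elongation factors and their TOP-class partners 5 of 12 (median 0.42), and the regulators of TOP translation 6 of 12 (median 0.42), among them Myc with 1.77 ± 0.34 and Larp1 with 1.48 ± 0.36. The assembly factors then came down: from 24 and 35 h to 73, 96 and 120 h, 43 of 44 fell, with a median of -1.62, and 66 of 73 mitochondrial ribosomal proteins fell, with a median of -0.73, while the median of the cytosolic ribosomal proteins was 0.00. In the late comparison of Th1/2 with Th0, 9 of 44 assembly factors were lower and 1 higher, and 11 of 73 mitochondrial ribosomal proteins were lower and 2 higher, where 13.8% of all genes were lower and 10.1% higher. Differences between these lists were not tested.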

How the data were processed

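The deposited values are normalized intensities on a linear scale. Per the study's methods, the authors background-corrected and quantile-normalized the Illumina Mouse Sentrix-6 data, and their software is not named in the sources read here. Array medians lay between 106.7 and 111.1, so log2 was taken and nothing was renormalized. No sequencing depth exists for arrays, and their number limits the precision. Of 45135 probes, 34773 carried 1 symbol, 18 several and 10344 none, and only the first were used. No column was left unused.

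Members, gene lists and comparisons were chosen with earlier results of these data known. Genes were named by size of change among those that passed, as paralogs, by well-known roles, or as least like the others. Genes named outside that are said to be so.

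Tests used limma 3.58.1 in R 4.3.3 with Benjamini-Hochberg adjustment over all 13817 genes, at an adjusted p under 0.05. Culture and time were fitted as 37 condition means on 74 arrays. For time, the 4 cultures were averaged within an experiment, and values were weighted by their number of arrays, a change made after a test on simulated data, since a 0 h value is 1 array. Whether the arrays with a replicate number came from separate mice is not stated, so p-values measure the spread between arrays of 2 experiments. The number was taken to mark the experiment, which the labels do not say in words. Deviations from condition means correlated within a time with a median r of 0.54 (54 pairs, lowest 0.01). Over all 666 pairs the median was 0.11. The arrays of a number thus moved together within a time, which does not show that a number is the same experiment at all times.

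Alternatives were a replicate block, normexp and quantile normalization with an offset of 50, centring of arrays, the mean of expressed probes, no filter, a variance trend, a lower fold for kinetic genes, all 74 arrays in 1 fit for time, and leaving out arrays or replicates. Added after seeing the data were a fit by probe, late means without 96 h, and averaged values without weights.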

Additional observations from a re-analysis of the deposited data

Results flagged for a closer look

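Differences between cultures in the late mean over 48 to 120 h are given here because the difference itself passed limma's test, and Rplp0 also because it passed the F-test over all 27 differences (adjusted p = 0.0032). Th1/2 exceeded Th0 in Rplp0 by 0.56, Rpl22l1 by 0.52, Rpl7a by 0.47, Rpl22 by 0.44, Rpl13a by 0.39, Rpl29 by 0.37, Rpl4 by 0.31, Rpl30 by 0.25, Rps15 by 0.23, Rpl24 by 0.23, Rpl19 by 0.22, Rpl27 by 0.18 and Rpl26 by 0.14 on the log2 scale. Th1/2 exceeded Th1 in Rpl22 by 0.52, Rplp0 by 0.42, Rpl7a by 0.34, Rpl4 by 0.30, Rps25 by 0.29, Rpl13a by 0.29 and Rpl19 by 0.19. Th2 exceeded Th0 in Rplp0 by 0.45, Rpl22 by 0.38, Rpl29 by 0.28, Rpl13a by 0.21, Rps15 by 0.21 and Rpl19 by 0.17. Th1 differed from Th2 by -0.45 in Rpl22 and by -0.30 in Rplp0. Without the pair of arrays that stood apart, Rpl22l1, Rpl30 and Rpl26 no longer passed between Th1/2 and Th0, nor Rpl22 and Rpl29 between Th2 and Th0. With 2 arrays per condition, no group was large enough for a check of single samples within a condition.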

How the results depend on the processing

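Of 2534 values of single genes under the alternatives, 2326 kept their direction and their side of the threshold, 184 lost it, 21 gained it and 3 changed direction. These 3 were seen with the mean of expressed probes, with 0.019 for Rpl23 at 24 h, 0.20 for Rpl38 at 96 h and -0.39 for Rps24 in Th0 cells from the middle to the late phase. With all 74 arrays in 1 fit, 51 members passed the F-test over time and 31 the comparison of the late with the middle phase, against 26 and 18 with averaged cultures. With the mean of expressed probes, 31 passed the comparison of the late with the middle phase. At 1.5-fold, 13 members were kinetic against 7. The F-test over culture differences gave 9 with the replicate block within each time, 2 with the mean of expressed probes and 3 without the pair of arrays that stood apart, against 1. Shares of all genes under the alternatives are given only where stated above. Without such a share, a count in this section is no result about the members.

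In the late means, Th1/2 against Th0 gave 18 calls with the block within each time and 6 without 96 h, against 13. Th1/2 against Th1 gave 12 with the block, 4 without 96 h and 11 with the mean of probes, against 7. Th2 against Th0 gave 10, 1 and 13, against 6, and Th1 against Th2 gave 5, 0 and 5, against 2, under the same alternatives. Leaving out 1 replicate of a culture or of the naive cells gave 23 to 27 members over time, 17 to 21 from the middle to the late phase, 347 to 465 calls by culture and time (471 in full), 6 to 8 kinetic members, 1 to 2 over culture differences, and 7 to 13, 3 to 7, 1 to 7 and 0 to 4 in the late comparisons of Th1/2 with Th0, Th1/2 with Th1, Th2 with Th0 and Th1 with Th2. The lowest of these late counts came without the experiment 2 arrays of Th0 (7), the experiment 1 arrays of Th1 (3 and 0) and the experiment 1 arrays of Th2 (1 and 0). The late minus middle calls within cultures numbered 56 to 69, against 68. The causes were not tested. The replicate block over all times changed no count by over 1.5 times (29 members over time). Whether an upper limit of the signal hid increases of the brightest probes was not tested.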
